A study of Homo sapiens with 32 samples.

Results

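SMARCA2 (BRM) and SMARCA4 (BRG1) were each read by several probe sets of the array, and every probe set whose annotation names SMARCA2 or SMARCA4 as its gene was followed on its own. This gave 7 SMARCA2 and 9 SMARCA4 probe sets, 16 of the 54675 on the array. None of the 1801 probe sets with several symbols named either gene. The probe sets of each gene were taken by annotation and not by measured value. The genes themselves were chosen with earlier results of these data known.

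SWI/SNF (BAF and PBAF) complexes are chromatin remodelers whose motor is either SMARCA2 or SMARCA4. This ATPase turns ATP hydrolysis into movement of DNA over the histone octamer, which slides or evicts nucleosomes at promoters and enhancers, and a bromodomain near the carboxyl end of both proteins binds acetylated lysines. SMARCA4 is recurrently inactivated in lung cancer, and cells without working SMARCA4 are known to depend on SMARCA2.

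Expression was measured in H1299 and A549, established human lung cancer lines, each with SMARCA4 known to be inactivated by mutation. All cells were stable isogenic lines grown without drug treatment, and each carried 1 of 2 short hairpin RNAs: shLuc, a control against luciferase, or S2sh7, directed at the part of SMARCA2 that encodes the ATPase domain. Each line also expressed GFP as a control or 1 of 3 cDNAs, namely wild type (WT), a bromodomain mutant (BRD) or an ATPase dead form (ATPdead). The cDNA was SMARCA2 in H1299, with 3 arrays in each of 8 groups, and SMARCA4 in A549, with 1 array in each of 8 groups. The vector and promoter of the cDNAs, and whether a stable line was 1 clone, were not stated in the labels used here. The H1299 replicates are labelled biological, but whether they came from separate cultures is not stated, so p-values measure the spread between these samples, and the number of arrays limits the precision. The cell line, the batch label and the scaling of the arrays changed together (the median intensity of an array was 26.4 to 27.3 for H1299 arrays, and for A549 arrays it was 40.1 to 41.2) and cannot be told apart. KRT8 and KRT18, keratins of carcinoma cells, were high in both lines (median log2 10.5 and 12.7 in H1299, 12.4 and 13.5 in A549). EPCAM (2.83 in H1299, 7.80 in A549) and CDH1 (2.50 and 10.0) were bright only in A549, and 3 of 6 epithelial markers in H1299 and 6 of 6 in A549 had a median over log2 5. PTPRC, the pan-leukocyte gene, and CDH5, an endothelial cadherin, were dim in both lines (medians 3.13 and 3.11 in H1299, 3.77 and 3.22 in A549). Other members of their lists read higher: CD3E had medians of 5.22 in H1299 and 6.04 in A549, and PECAM1 5.47 and 6.37. In H1299, 1 of 3 leukocyte, 1 of 3 endothelial, 2 of 4 fibroblast and 4 of 4 alveolar markers had a median over log2 5. In A549 these were 1 of 3, 2 of 3, 3 of 4 and 4 of 4. CDKN2A, known to be deleted in A549, read 10.7 in H1299 and 5.76 in A549.

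As background on the native genes, the stretch just before their first annotated start site is shown here. A part of these windows in any change of RNA was not tested. The 250 bases before the start are given 5′ to 3′ on the plus strand from RefSeq (GRCh38.p14), at chr9:2015097-2015346 for SMARCA2 and chr19:10960780-10961029 for SMARCA4. Capitals mark the GC box core searched for, GGGCGG on the plus strand or CCGCCC, its reverse complement.
SMARCA2: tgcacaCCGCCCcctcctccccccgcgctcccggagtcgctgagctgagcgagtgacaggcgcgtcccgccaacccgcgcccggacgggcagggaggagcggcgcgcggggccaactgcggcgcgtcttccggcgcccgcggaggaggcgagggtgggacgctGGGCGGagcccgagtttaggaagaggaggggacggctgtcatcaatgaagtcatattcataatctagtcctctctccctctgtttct
SMARCA4: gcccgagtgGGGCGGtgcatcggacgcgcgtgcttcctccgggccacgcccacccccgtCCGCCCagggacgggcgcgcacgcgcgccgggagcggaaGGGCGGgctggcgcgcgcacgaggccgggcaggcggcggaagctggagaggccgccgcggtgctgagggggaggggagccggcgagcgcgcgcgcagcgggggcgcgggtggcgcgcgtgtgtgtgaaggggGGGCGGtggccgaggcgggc
The SMARCA2 window held 2 GC box cores and the SMARCA4 window 4, where 42.6% of 35116 such windows held at least 1 on either strand. Neither window held TATAAA, present in 10.7% of windows on either strand, or CCAAT, present in 32%. The windows were GC rich (68.8% for SMARCA2, 82.4% for SMARCA4, with a median of 58.0% over all windows) and held 29 and 44 CG dinucleotides. RefSeq lists 4 such windows for SMARCA2 and 2 for SMARCA4. These matches describe the letters only. Which bases each probe set reads was not analysed here. Native and cDNA transcripts were therefore not separated, and no level of one probe set is set against another.

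A value is the RMA expression of a probe set, given here as log2 unless it is called an intensity. A probe set was called when its limma adjusted p (Benjamini-Hochberg over all 54675 probe sets) was under 0.05. Counts at an unadjusted p under 0.05, and whether the arrays of compared groups overlapped, were taken for members only. The shares of all probe sets were not counted for either, so both describe the readings and show no excess. Among the SMARCA2 probe sets, 5 of 7 exceeded log2 5 in at least 3 arrays of H1299, and 5 of 7 did so in A549. For SMARCA4 the numbers were 6 of 9 and 7 of 9. In the probe set names, _s_at marks a set that can read several transcripts of a gene or family, and _x_at a set with probes that can also match other transcripts.

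In H1299, S2sh7 lowered SMARCA2 RNA with GFP and with each SMARCA2 cDNA. These are bulk samples, in which fewer cells with a transcript and less of it per cell cannot be told apart. With GFP, 4 of the 7 SMARCA2 probe sets fell and none rose, where 7.62% of all probe sets fell and 5.3% rose. The median over the 7 was -0.77, against 0.02 over all probe sets. The 4 that fell were 206542_s_at, 206544_x_at, 212257_s_at and 217707_x_at. The same 4 fell with WT (5.16% of all probe sets lower and 4.82% higher), BRD (5.88% and 3.8%) and ATPdead (5.56% and 5.83%), and in each comparison every S2sh7 array lay below every shLuc array.

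The probe set 206542_s_at read 6.16, 5.98 and 6.27 in the 3 arrays with shLuc and GFP, and 4.87, 5.01 and 4.64 with S2sh7 and GFP. The groups did not overlap, and the mean intensity went from 70.6 (SD 7.01, n = 3) to 28.8 (SD 3.73, n = 3), or 40.7% of the control (log2 fold change -1.30, SE 0.099, limma adjusted p = 1.22e-08). With the SMARCA2 cDNAs it fell by a like amount: -1.35 with WT, -1.42 with BRD and -1.26 with ATPdead (limma adjusted p from 7.63e-09 to 2.23e-08). Its shLuc means lay between 6.11 and 6.31 and its S2sh7 means between 4.75 and 5.00.

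The probe set 206544_x_at read 5.79, 5.62 and 5.67 with shLuc and GFP and 4.46, 4.27 and 4.27 with S2sh7 and GFP. It fell by 1.36 with GFP (SE 0.120, limma adjusted p = 8.73e-08), by 1.19 with WT, 1.27 with BRD and 1.26 with ATPdead. The probe set 217707_x_at read 6.36, 6.49 and 6.34 with shLuc and GFP and 5.24, 5.19 and 4.86 with S2sh7 and GFP. It fell by 1.30 with GFP (SE 0.104, limma adjusted p = 2.09e-08), by 1.00 with WT, 1.44 with BRD and 1.14 with ATPdead. Over the 4 cDNAs together, the readings of these 3 probe sets were 39.7% (206542_s_at), 41.4% (206544_x_at) and 42.9% (217707_x_at) of their shLuc level. Their S2sh7 group means were 4.33 to 5.28, close to log2 5. Background was not separated from remaining RNA, so these percentages are of the reading and not of the RNA.

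The probe set 212257_s_at fell less in H1299: -0.77 with GFP, -0.67 with WT, -0.68 with BRD and -0.95 with ATPdead (SE 0.160 each, limma adjusted p = 0.00228, 0.00929, 0.00856 and 3.72e-04). It read 5.45, 5.44 and 5.34 with shLuc and GFP, and 4.44, 4.32 and 5.15 with S2sh7 and GFP. The third S2sh7 array lay close under the control arrays and the other two well below them. The fall with WT was no longer called without shLuc WT replicate 3 (-0.56, limma adjusted p = 0.0600) or without S2sh7 WT replicate 2 (-0.56, adjusted p = 0.0633), and neither that fall nor the one with GFP was called when only the 6 arrays compared were fitted (adjusted p = 0.0538 and 0.0726).

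The remaining 3 SMARCA2 probe sets were dim. None of the 24 H1299 arrays exceeded log2 5 for 206543_at or 228926_s_at, and 7 did for 212258_s_at. The probe set 206543_at was called only over the mean of the 4 cDNAs, where 13.9% of all probe sets fell and 13.7% rose (-0.34, SE 0.085, limma adjusted p = 0.00394), with single differences from -0.11 to -0.52. The probe set 212258_s_at differed by -0.11 with GFP (95% interval -0.36 to 0.13) and 228926_s_at by 0.01 (-0.19 to 0.21). These intervals leave out a fall of the size seen in 206542_s_at.

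**Figure D1:**
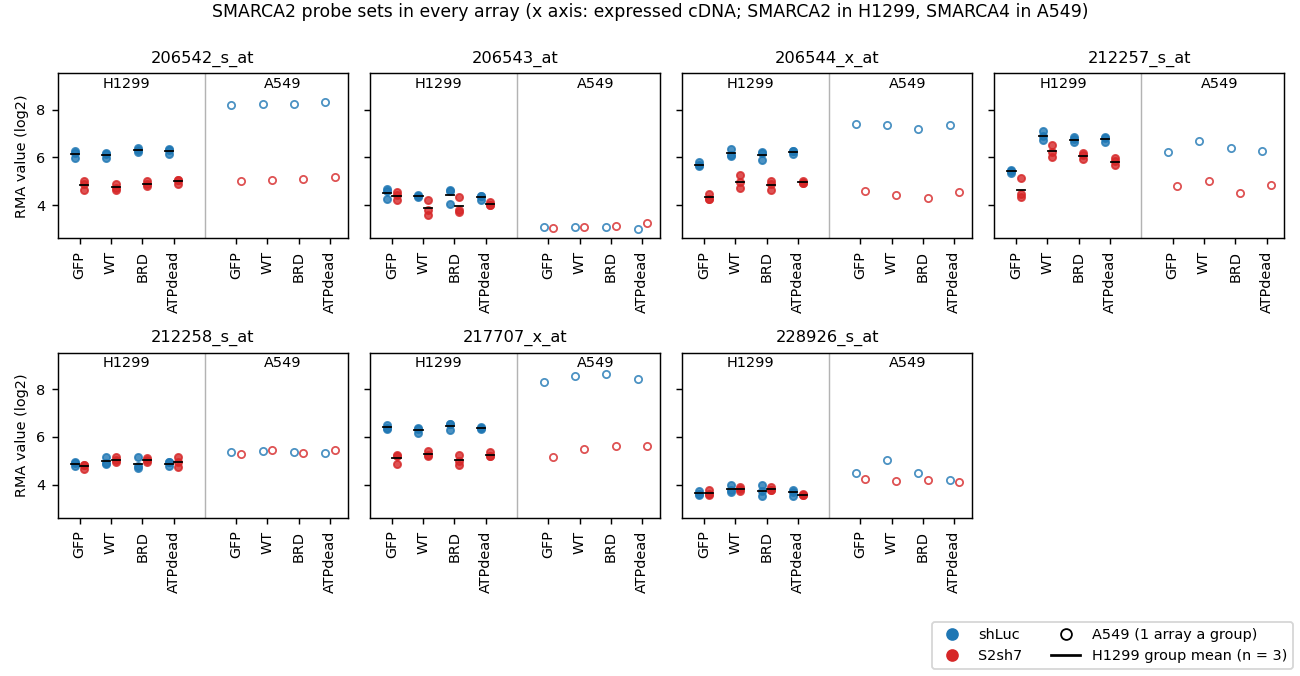
RMA values (log2) of the 7 SMARCA2 probe sets in every array, one panel a probe set, by expressed cDNA, with shLuc in blue and S2sh7 in red. Filled points are H1299 arrays with a black bar for the mean of 3, open points are the single A549 arrays. In 206542_s_at, 206544_x_at, 212257_s_at and 217707_x_at every red point lies below the blue points of the same line and cDNA, and in H1299 212257_s_at stands higher with the 3 SMARCA2 cDNAs than with GFP.

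Of the SMARCA2 probe sets in H1299, 212257_s_at rose most over GFP with each SMARCA2 cDNA. With shLuc it read 6.88, 6.74 and 7.12 with WT, 6.83, 6.64 and 6.76 with BRD and 6.63, 6.85 and 6.81 with ATPdead, all above the 3 GFP arrays. The mean intensity was 42.6 (SD 1.87) with GFP, 121 (SD 16.3) with WT, 107 (SD 7.27) with BRD and 109 (SD 8.72) with ATPdead (n = 3 each). The rises were 1.50, 1.33 and 1.36 (SE 0.160 each, limma adjusted p = 1.04e-04, 3.89e-04 and 9.21e-04). Under shLuc, ordered by log2 fold change, 212257_s_at ranked 1st of 54675 probe sets among rises with each of the 3 cDNAs. It was the only 1 of 7 SMARCA2 probe sets called higher with WT (0.108% of all probe sets were called higher and 0.179% lower), BRD (0.0823% and 0.0457%) or ATPdead (0.00366% and 0.00549%). None of the 7 was called lower. The comparisons of WT, BRD and ATPdead with GFP under a hairpin share their GFP arrays.

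With S2sh7, 212257_s_at read 6.51, 6.03 and 6.20 with WT, 5.94, 6.09 and 6.16 with BRD and 5.83, 5.97 and 5.67 with ATPdead. These again lay above all 3 GFP arrays, with rises of 1.61, 1.43 and 1.18 (limma adjusted p = 7.44e-06, 3.55e-05 and 0.00131). A second SMARCA2 probe set, 206544_x_at, was called as well, so that 2 of 7 rose with WT (0.827% of all probe sets higher and 0.558% lower), BRD (0.83% and 0.708%) and ATPdead (0.086% and 0.338%), and none was lower. When only the 6 arrays compared were fitted, 0 of 7 were called higher in limma with each of the 3 cDNAs, with adjusted p from 0.0805 to 0.307.

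The probe set 206544_x_at read 5.24, 4.71 and 4.98 with S2sh7 and WT, 4.65, 5.00 and 4.86 with BRD and 4.94, 4.93 and 5.02 with ATPdead. All 9 arrays were above the S2sh7 GFP arrays, with rises of 0.64, 0.51 and 0.63 (SE 0.120 each, limma adjusted p = 0.00677, 0.0365 and 0.0193). With shLuc the means differed from GFP by 0.47, 0.41 and 0.53, and these differences were not called (adjusted p = 0.131, 0.28 and 0.238). The arrays of each cDNA lay above GFP there too, but how many of all probe sets separate so was not counted. The calls with S2sh7 were lost without S2sh7 GFP replicate 2 or 3 for BRD (adjusted p = 0.125 and 0.129) and ATPdead (0.0880 and 0.0961). They were also lost without S2sh7 BRD replicate 2 or 3 (0.180 and 0.110) and without S2sh7 ATPdead replicate 2 or 3 (0.0604 and 0.0963).

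The other probe sets that fell with S2sh7 were not called higher with any cDNA. With shLuc, 206542_s_at differed from GFP by -0.03 with WT (95% interval -0.24 to 0.18), 0.18 with BRD (-0.03 to 0.38) and 0.12 with ATPdead (-0.09 to 0.33). The probe set 217707_x_at differed by -0.11, 0.06 and -0.01. So the SMARCA2 probe sets fell into those whose readings rose with the cDNA and those for which no rise was called.

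The part of the 212257_s_at intensity that came with the cDNA was taken as the cDNA group mean minus the GFP mean under the same hairpin, as a description. With shLuc it was 78.7 (SE 9.45) with WT, 64.9 (SE 4.33) with BRD and 66.5 (SE 5.15) with ATPdead. S2sh7 arrays gave 51.0 (SE 9.06), 41.4 (SE 5.77) and 31.0 (SE 5.94), or 64.8%, 63.7% and 46.6% of the shLuc excess. In 206544_x_at the excess was 20.4 (SE 5.51), 17.5 (SE 5.39) and 22.9 (SE 2.78) with shLuc and 11.6 (SE 3.49), 8.58 (SE 2.23) and 11.0 (SE 1.14) with S2sh7. In intensity units the excess was smaller with S2sh7 than with shLuc in both probe sets and for all 3 cDNAs. This was not tested and is not a share of the whole reading, which was smaller with S2sh7 too. On the log2 scale the fall of 212257_s_at with S2sh7 was not called different between a cDNA and GFP: the difference of falls was 0.11 with WT (95% interval -0.37 to 0.58), 0.09 with BRD (-0.38 to 0.57) and -0.17 with ATPdead (-0.65 to 0.30).

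The 3 cDNAs were compared with each other under each hairpin, in 6 comparisons. None of the 16 probe sets was called in limma in any of them. Under shLuc, 0.49% of all probe sets were called higher and 0.276% lower for BRD against WT, 0.174% and 0.252% for ATPdead against WT, and 0.00914% and 0.0238% for ATPdead against BRD. Under S2sh7 the shares were 0.00183% and 0.00183%, 0.212% and 0.316%, and 0.179% and 0.216% for the comparisons in that order. With S2sh7, ATPdead against WT had 5 of 16 members at an unadjusted p under 0.05, and the other 5 comparisons had 0 to 2. In that comparison 212257_s_at was lower in all 3 ATPdead arrays than in all 3 WT arrays (-0.43, 95% interval -0.76 to -0.09, limma adjusted p = 0.344). With shLuc the same difference was -0.15 (-0.48 to 0.19), and BRD differed from WT by -0.17 (-0.50 to 0.17) with shLuc and -0.18 (-0.52 to 0.15) with S2sh7. These intervals are of the whole reading and do not bound the part that came with the cDNA, so equal cDNA levels were not shown.

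**Figure D2:**
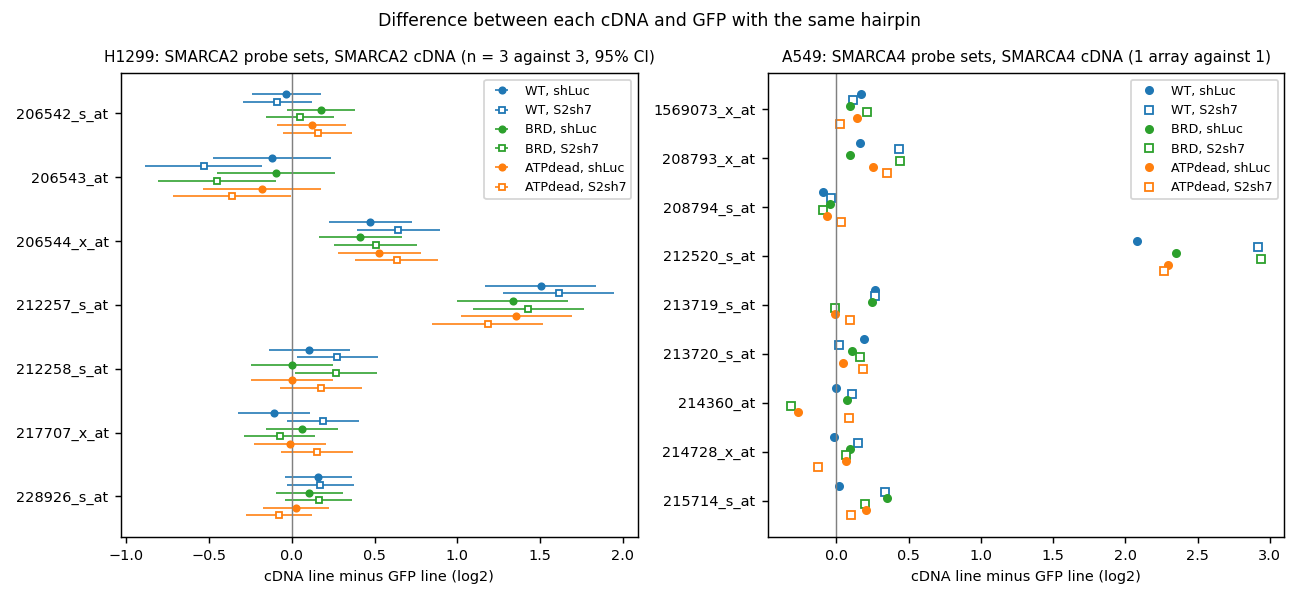
Difference from GFP (log2) with each cDNA, for both hairpins, of the SMARCA2 probe sets in H1299 and the SMARCA4 probe sets in A549. H1299 points are differences of means of 3 arrays with 95% intervals from limma, A549 points are 1 array minus 1 array. In H1299 212257_s_at stands out at 1.18 to 1.61 and 206544_x_at at 0.41 to 0.64, and in A549 212520_s_at stands out at 2.08 to 2.94.

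SMARCA4 RNA fell with S2sh7 in H1299, by less than SMARCA2. With GFP, 4 of 9 SMARCA4 probe sets fell and none rose, beside the 7.62% lower and 5.3% higher over all probe sets. The median over the 9 was -0.06, against 0.02 over all probe sets. The probe set 208794_s_at read 7.50, 7.29 and 7.35 with shLuc and GFP and 6.73, 6.79 and 6.82 with S2sh7 and GFP, without overlap, which was 65.8% of the control (-0.60, SE 0.069, limma adjusted p = 2.95e-06). The probe set 213720_s_at read 6.84, 6.50 and 6.59 against 5.97, 5.96 and 5.98, or 62.6% of the control (-0.68, SE 0.086, limma adjusted p = 1.17e-05). The other 2 were 215714_s_at (-0.38, 77.1% of the control, limma adjusted p = 1.22e-05) and 214728_x_at (-0.29, 81.9%, adjusted p = 0.00655), and in both the 3 S2sh7 arrays were below the 3 shLuc arrays. The call of 214728_x_at was lost when only those 6 arrays were fitted (adjusted p = 0.0633).

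With a SMARCA2 cDNA present, S2sh7 lowered 3 of 9 SMARCA4 probe sets with WT, 2 of 9 with BRD and 3 of 9 with ATPdead, and raised none, beside 5.16%, 5.88% and 5.56% of all probe sets lower and 4.82%, 3.8% and 5.83% higher. The probe set 208794_s_at was among them each time (-0.33, -0.30 and -0.37, limma adjusted p = 0.00297, 0.0065 and 8.87e-04). With WT it read 7.30, 7.25 and 7.43 with shLuc and 7.09, 6.93 and 6.97 with S2sh7, with BRD 7.23, 7.19 and 7.25 against 6.81, 6.98 and 6.96, and with ATPdead 7.30, 7.15 and 7.13 against 6.88, 6.87 and 6.72. In none of the 3 did the arrays overlap. The probe set 213720_s_at fell with WT (-0.32, adjusted p = 0.018) and ATPdead (-0.40, adjusted p = 0.00289) and differed by -0.19 with BRD (adjusted p = 0.197).

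Several of these smaller calls rested on single arrays. The fall of 213720_s_at with WT was not called without shLuc WT replicate 1 (limma adjusted p = 0.0560), shLuc WT replicate 3 (0.106) or S2sh7 WT replicate 2 (0.128), nor was it or that of 208794_s_at called when only the 6 arrays compared were fitted (0.151 and 0.0545). The probe set 215714_s_at fell with BRD (-0.16, adjusted p = 0.043) and ATPdead (-0.25, adjusted p = 9.91e-04) and differed by -0.14 with WT (adjusted p = 0.0846). Its call with BRD was lost without any 1 of the 6 arrays of that comparison (limma adjusted p from 0.0653 to 0.156). The third call with WT was 212520_s_at, at readings under log2 4 (-0.26, adjusted p = 0.0405), and it was also lost without any 1 of the 6 arrays (adjusted p from 0.0797 to 0.111).

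The difference in the SMARCA4 fall between a SMARCA2 cDNA and GFP was tested as an interaction, and 0 of 16 members were called in limma with WT (0.252% of all probe sets called higher and 0.0604% lower), BRD (0.0238% and 0.011%) or ATPdead (0.00732% and 0.00366%). At an unadjusted p under 0.05 there were 4, 3 and 2 of 16, all of them SMARCA4 probe sets. The share of all probe sets at that cutoff was not counted, so no excess is shown. The fall of 213720_s_at was smaller with BRD than with GFP by 0.49 (95% interval 0.23 to 0.74, limma adjusted p = 0.207), and that of 208794_s_at by 0.30 (0.10 to 0.50, adjusted p = 0.391). In 208794_s_at it was smaller by 0.27 with WT (0.07 to 0.48, adjusted p = 0.324) and by 0.23 with ATPdead (0.03 to 0.44, adjusted p = 0.553). In 212520_s_at, dim in H1299, the reading fell with WT but not with GFP, where the means were 3.70 with shLuc and 3.74 with S2sh7. That interaction was -0.30 (95% interval -0.53 to -0.07, limma adjusted p = 0.346), the 1 of these differences that ran the other way. None passed over all probe sets, and the interactions with WT, BRD and ATPdead share their GFP arrays.

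No SMARCA4 probe set was called in limma with any SMARCA2 cDNA against GFP. In these comparisons 0.00366% to 0.83% of all probe sets were called higher and 0.00549% to 0.708% lower. The lack of a call therefore says nothing particular to SMARCA4. With shLuc, 1, 2 and 1 of 9 had an unadjusted p under 0.05 with WT, BRD and ATPdead, and with S2sh7, 4, 2 and 0 of 9. With S2sh7, 213720_s_at was 0.29 higher with WT (95% interval 0.11 to 0.47, limma adjusted p = 0.122) and 0.29 higher with BRD (0.11 to 0.47, adjusted p = 0.116). The probe set 208794_s_at was 0.22 higher with WT (0.07 to 0.36, adjusted p = 0.151).

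**Figure D3:**
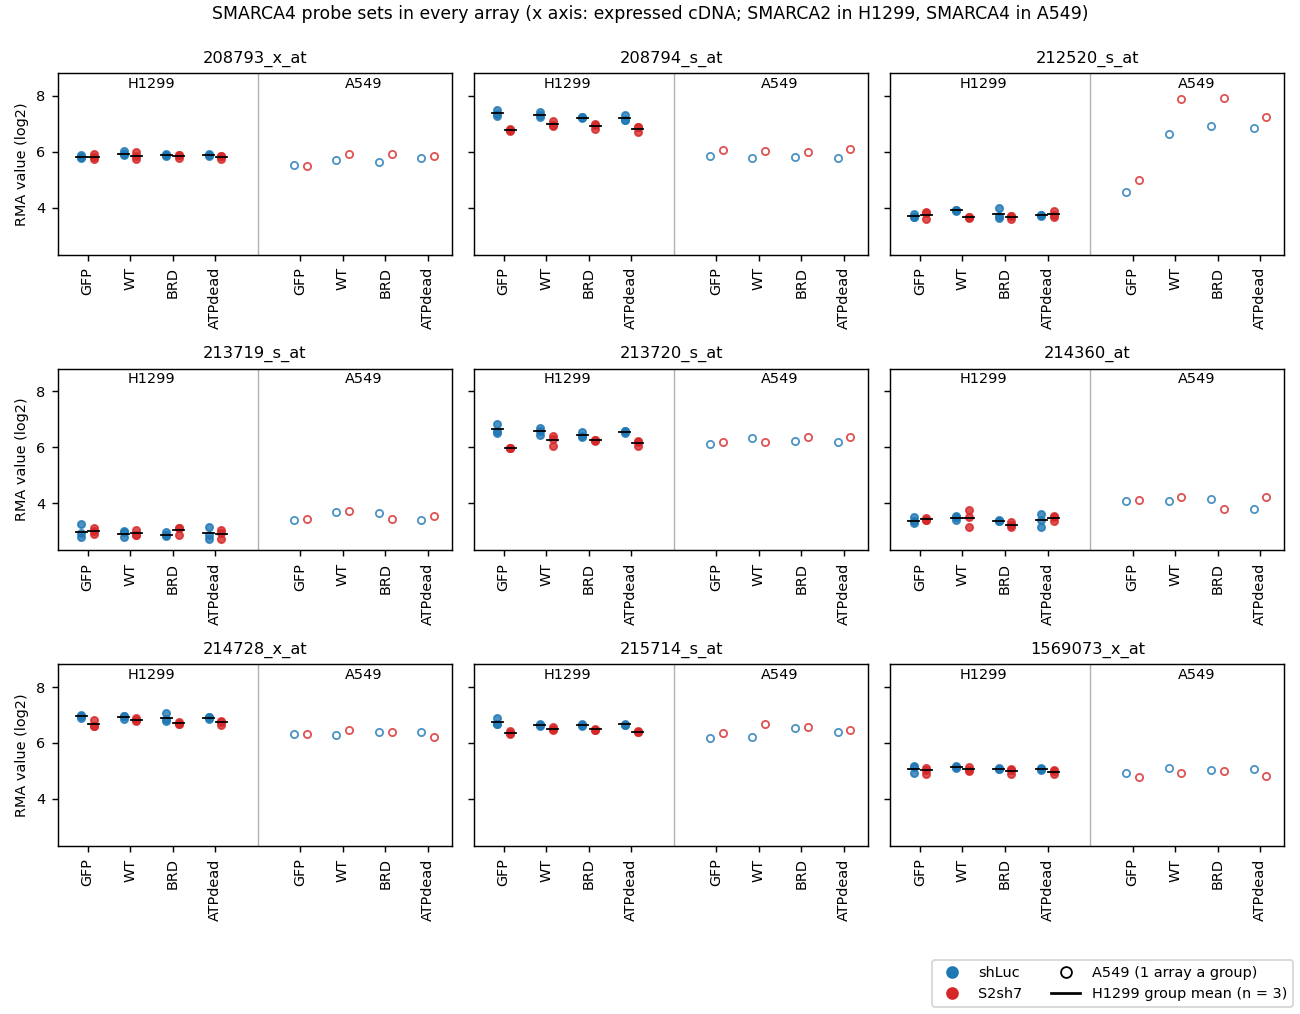
RMA values (log2) of the 9 SMARCA4 probe sets in every array, drawn as for SMARCA2, with filled points for H1299, black bars for means of 3 and open points for single A549 arrays. In H1299 the red S2sh7 points of 208794_s_at, 213720_s_at and 215714_s_at lie below the blue shLuc points, while in A549 212520_s_at stands between 6.64 and 7.91 with the SMARCA4 cDNAs and at 4.56 and 4.97 with GFP.

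In A549, S2sh7 lowered SMARCA2 RNA in each of the 4 cDNA lines. The A549 fit used additive terms for hairpin and cDNA over 8 single arrays (3 residual degrees of freedom), so the 4 cDNA lines served as pairs. In limma 4 of 7 SMARCA2 probe sets fell and none rose, where 5.16% of all probe sets fell and 6.28% rose. The median over the 7 was -1.60, against -0.003 over all probe sets. They were the 4 that fell in H1299.

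The probe set 206542_s_at read 8.19, 8.22, 8.23 and 8.32 with shLuc and GFP, WT, BRD and ATPdead, and 5.02, 5.06, 5.08 and 5.17 in their S2sh7 counterparts. All 4 pairs fell by nearly the same amount, with differences between -3.15 and -3.17 on the log2 scale (mean -3.16, SE 0.057, limma adjusted p = 4.59e-05). With GFP, 11.1% of the control reading was left. The probe set 217707_x_at fell by 3.02 (SE 0.082, adjusted p = 1.99e-04), from between 8.31 and 8.63 to between 5.13 and 5.63. The probe set 206544_x_at fell by 2.86 (SE 0.060, adjusted p = 6.1e-05), from between 7.18 and 7.39 to between 4.31 and 4.58. The probe set 212257_s_at fell by 1.60 (SE 0.097, adjusted p = 0.00293), from between 6.23 and 6.69 to between 4.49 and 4.99. Ordered by log2 fold change over all 54675 probe sets, these falls ranked 14th, 20th, 27th and 262nd.

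The other 3 SMARCA2 probe sets were not called in A549. The probe set 228926_s_at was lower in 4 of 4 pairs (-0.40, 95% interval -0.71 to -0.08, limma adjusted p = 0.105), and its difference was larger with WT (-0.90) than in the other pairs (-0.11 to -0.32). The probe set 212258_s_at stood between 5.27 and 5.44 in all 8 arrays, with a difference of 0.0002 (-0.15 to 0.15), and 206543_at between 3.00 and 3.23.

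In 206542_s_at the S2sh7 values were 5.02 to 5.17 in A549 and 4.64 to 5.07 over the 12 H1299 arrays, while the shLuc values were 8.19 to 8.32 and 5.98 to 6.40. The larger fall of this probe set in A549 went with a higher control reading, and the part of line, batch label and array scaling in that difference cannot be told apart. Whether the S2sh7 values of both lines stood at background was not tested. A test of the difference, added after the values were seen, gave -1.83 for the A549 fall minus the mean H1299 fall (95% interval -2.02 to -1.63, limma adjusted p = 9.98e-13, with 13.5% of all probe sets called lower and 16.8% higher).

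**Figure D4:**
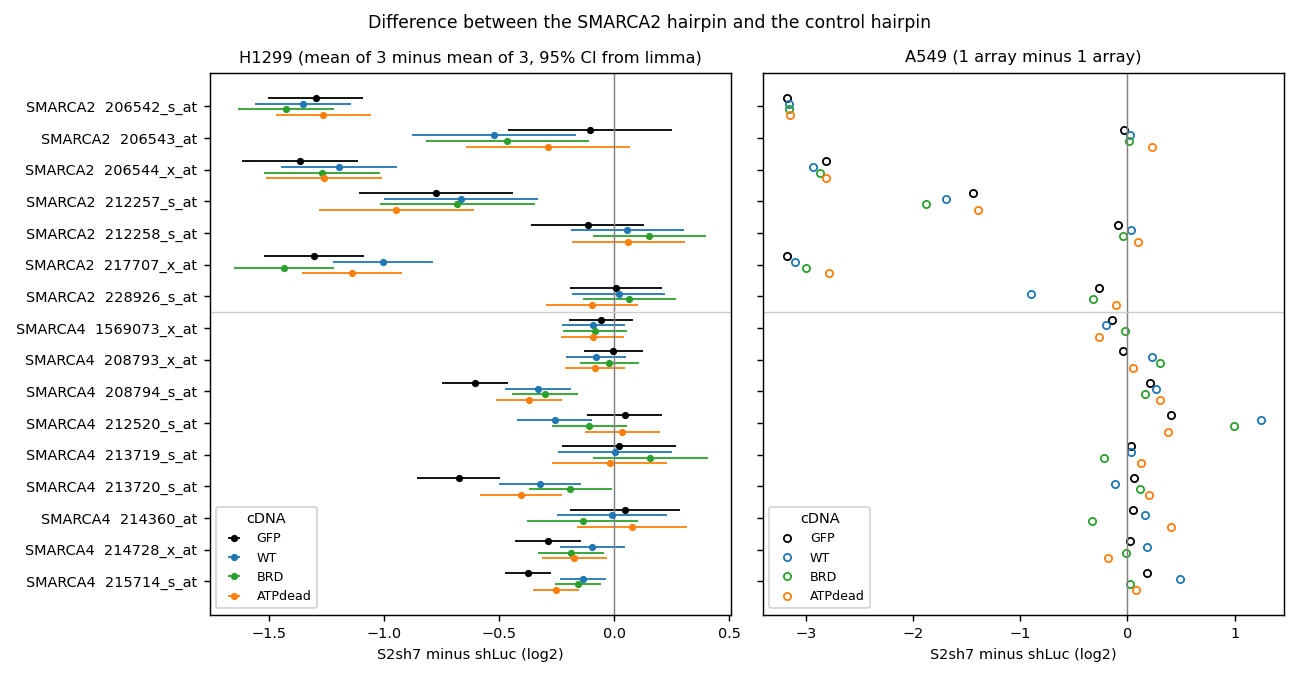
Difference between S2sh7 and shLuc (log2) for all 16 probe sets by expressed cDNA, in H1299 as means of 3 minus means of 3 with 95% intervals from limma, and in A549 as 1 array minus 1 array. The 4 SMARCA2 probe sets that fell lie at -0.67 to -1.44 in H1299 and -1.39 to -3.18 in A549, and 208794_s_at of SMARCA4 lies at -0.30 to -0.60 in H1299 and 0.16 to 0.30 in A549.

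No SMARCA4 probe set fell with S2sh7 in A549 in limma, where 5.16% of all probe sets fell and 6.28% rose. At an unadjusted p under 0.05 there were 2 of 9, both higher. The only one called was 212520_s_at, 1 of 9 called higher (0.76, SE 0.158, limma adjusted p = 0.0341). It was also the SMARCA4 probe set that rose most over GFP with the SMARCA4 cDNAs. Its pairs differed by 0.41 with GFP, 1.24 with WT, 0.99 with BRD and 0.38 with ATPdead. The call was lost without any 1 of the 4 pairs (limma adjusted p from 0.0728 to 0.0844). The probe set 208794_s_at, which fell in H1299, was higher in 4 of 4 A549 pairs (5.86, 5.76, 5.81 and 5.79 with shLuc and 6.06, 6.03, 5.97 and 6.09 with S2sh7), but was not called (0.23, 95% interval 0.09 to 0.38, adjusted p = 0.0583). The probe set 1569073_x_at was lower in 4 of 4 pairs and was not called either (-0.16, -0.32 to 0.0031, limma adjusted p = 0.184). The added test of the difference between lines gave 0.64 for 208794_s_at (95% interval 0.50 to 0.77, limma adjusted p = 1.11e-07), 0.46 for 213720_s_at and 0.42 for 215714_s_at. With S2sh7 these 3 probe sets therefore moved by amounts that differed between the lines, in which the cDNA also differed.

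Of the SMARCA4 probe sets in A549, 212520_s_at rose most over GFP with the SMARCA4 cDNAs. With shLuc it read 4.56 with GFP, 6.64 with WT, 6.91 with BRD and 6.85 with ATPdead. The S2sh7 arrays read 4.97, 7.88, 7.91 and 7.24 for GFP, WT, BRD and ATPdead. All 6 cDNA arrays were above both GFP arrays, by 2.08, 2.35 and 2.29 with shLuc and by 2.92, 2.94 and 2.27 with S2sh7. In intensity these were 4.23, 5.11 and 4.90 times the GFP reading with shLuc and 7.54, 7.67 and 4.82 times with S2sh7. Ordered by log2 fold change, it ranked 1st of 54675 among rises of the mean of the 3 cDNAs over GFP (2.47, SE 0.182, 95% interval 2.04 to 2.91). Its limma adjusted p was 0.109, so it was not called. For this comparison 0 probe sets were called higher and 2 lower on the whole array (0% and 0.00366%).

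The remaining SMARCA4 probe sets did not rise with the A549 cDNAs to that extent. The next were 208793_x_at (0.29, 95% interval 0.07 to 0.51) and 215714_s_at (0.20, -0.05 to 0.46), neither called (limma adjusted p = 0.784 each), and 208794_s_at differed by -0.05 (-0.22 to 0.12). Of the 16 members, 0 were called in limma for the mean of the 3 cDNAs and 3 had an unadjusted p under 0.05, all higher. The third was 217707_x_at of SMARCA2 (0.33, 0.11 to 0.56, adjusted p = 0.784). In H1299, where the cDNA was SMARCA2, 212520_s_at lay between 3.58 and 3.99 in all 24 arrays.

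The other subunits of the complex were followed through 28 genes, each by 1 probe set, with the ATPases left out. With GFP in H1299, 4 of 28 rose and 1 fell with S2sh7, where 7.54% of 19775 genes rose and 9.63% fell. The median was 0.06, against 0.02 over all genes. The risers were SMARCD3 (0.36), a BAF60 subunit that links the complex to transcription factors, BCL7C (0.23), ARID1A (0.21), the large subunit that defines BAF, and SMARCC2 (0.16), a core scaffold. The gene that fell was DPF1 (-0.41), a subunit of neuronal complexes. With WT 3 rose and 0 fell (7.63% and 6.44% of all genes), with BRD 2 and 0 (5.66% and 7.22%), and with ATPdead 6 and 0 (8.91% and 6.74%). The 6 risers with ATPdead were 2 or 3 without any 1 of the 6 arrays of that comparison. SMARCD3 rose in each (0.45, 0.45 and 0.63, limma adjusted p = 5.94e-04, 6.74e-04 and 1.10e-05).

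In A549, 4 of 28 subunit genes rose with S2sh7 and 0 fell, where 7.54% of all genes rose and 6.34% fell. The median was 0.12, against -0.004 over all genes. They were SS18 (0.84), which sits on the ATPase module, PBRM1 (0.49), the bromodomain subunit of PBAF, ARID1A (0.41) and SS18L1 (0.33). Without the GFP or the ATPdead pair 0 of 28 were called higher, and without the WT pair 2. No subunit gene was called with any SMARCA2 cDNA against GFP in H1299, where 0% to 1.37% of all genes were called higher and 0% to 0.733% lower. With the SMARCA4 cDNAs in A549 0% of all genes were called either way, so that 0 of 28 says nothing particular to the subunits. The members of both lists that rose did so by under 1 log2 unit in every comparison.

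Among 20 other ATPases of the same SNF2 family, 3 rose and 4 fell with S2sh7 and GFP in H1299 (median -0.01, against 0.02 over all genes), beside the 7.54% of all genes that rose and 9.63% that fell. CHD2, a chromatin remodeler that binds active genes, fell by 0.42 (limma adjusted p = 2.78e-06), and BTAF1, which removes TBP from DNA, fell by 0.25. HLTF, a helicase-like factor of replication fork repair, rose by 0.25 and SMARCAD1 by 0.18. With WT 2 rose and 5 fell (7.63% and 6.44% of all genes), with BRD 4 and 4 (5.66% and 7.22%), and with ATPdead 4 and 4 (8.91% and 6.74%). The number that fell rested on single arrays. With GFP it was 2 without shLuc GFP replicate 1 or S2sh7 GFP replicate 3. With WT it was 3 without shLuc WT replicate 1 and 2 without S2sh7 WT replicate 2. With ATPdead it was 2 without shLuc ATPdead replicate 1 or 3 and 1 without S2sh7 ATPdead replicate 3. In A549 2 rose and 1 fell (7.54% and 6.34% of all genes), and without 1 pair 0 or 1 rose and 0 or 1 fell. CHD2 (0.50) and SMARCAD1 (0.28) rose and CHD3 (-0.61), an ATPase of the NuRD complex, fell. In H1299, CHD3 rose with S2sh7 in the WT, BRD and ATPdead lines (0.26, 0.19 and 0.27) and was not called with GFP. CHD2 fell in H1299 with WT, BRD and ATPdead (-0.31, -0.21 and -0.34) as with GFP. With S2sh7, CHD4, the main NuRD ATPase, was lower with each SMARCA2 cDNA than with GFP (-0.29, -0.28 and -0.25, limma adjusted p = 0.00216, 0.00293 and 0.0193). These 3 comparisons share their GFP arrays. Against shLuc, S2sh7 lowered CHD4 with WT, BRD and ATPdead (-0.20, -0.24 and -0.16), and CHD4 was not called with GFP.

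Likeness of pattern was measured as Pearson's r with an anchor probe set over the 8 group means in H1299 and over the 8 arrays in A549, among probe sets with a mean over log2 6 and a range of at least 0.5 (1006 and 8321). The points share hairpin and cDNA, so r is a description. For SMARCA2, 212257_s_at was most like CREB3L1 (r = 0.860), TMEFF2 (0.849) and MYBL1 (0.825) in H1299. In A549 r with these genes was -0.51, -0.95 and -0.60, of the opposite sign. In A549 it was most like PDLIM5 (0.995), S1PR3 (0.992) and RNF217 (0.991), with r in H1299 of 0.41, 0.49 and 0.35. For SMARCA4, 208794_s_at was most like SFPQ (0.999), CENATAC (0.995) and CROCCP2 (0.992) in H1299, with r in A549 of -0.33, 0.84 and 0.32. Most like it in A549 were TRAF4 (0.994), RALGAPB (0.994) and C19orf25 (0.989), with r in H1299 of -0.38, 0.57 and -0.66. With 206542_s_at as the anchor, chosen after its values were seen, the genes most like it in H1299 were RAB8B, a small GTPase (0.996, and 0.975 in A549), IGF1R, the receptor of insulin-like growth factor (0.994 and 0.965), and CLDND1 (0.990 and 0.943). The genes most like this anchor in A549 were PDZD8 (0.999, and 0.936 in H1299), MOB1A (0.995 and 0.835) and FAM228B (0.995 and -0.743).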

How the data were processed

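Gene expression was measured from total RNA on Affymetrix HG-U133 Plus 2.0 arrays after 3' in vitro transcription labelling, per the labels' protocols. The authors deposited RMA values per probe set as intensity on a linear scale, and RMA and limma were used per the submitters' processing notes, which name no version in the sources used here. All 32 arrays were used and log2 was taken with no pseudocount. The platform annotation gave a single symbol for 41097 of the 54675 probe sets, more than 1 for 1801 and no symbol for 11777. No coordinates of the probes were used. No arrays held identical values, and replicates correlated at 0.9971 to 0.9984.

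The H1299 fit used limma 3.58.1 under R 4.3.3 (with the data.table package, version 1.17.8) on all probe sets without a filter, with 1 mean per group over 8 groups (16 residual degrees of freedom, median residual SD 0.108 log2), default eBayes and Benjamini-Hochberg adjustment over all probe sets, and calls at adjusted p under 0.05. A549 was fitted with additive terms for hairpin and cDNA (3 degrees of freedom, SD 0.110). Contrasts were S2sh7 against shLuc per cDNA, each cDNA against GFP per hairpin, their interaction, and the cDNAs against each other. A list gene was read by its probe set with the highest mean. The plan was to name at most 4 called genes of a list per contrast, in order of adjusted p. For the S2sh7 effect with GFP in H1299 every called subunit is named, and for the other H1299 cDNAs only some called genes are. For likeness, the 3 most similar genes per anchor were named; anchors were the probe set of each gene with the highest H1299 mean. The members and lists were chosen with earlier results of these data known. Tested on simulated data over 54675 probe sets, the H1299 GFP knockdown fit recovered 99% of shifts of 1 log2 and 74% of shifts of 0.5, and the A549 fit 61% and 15%. Far fewer probe sets were shifted there than were called in the data. The Benjamini-Hochberg cutoff depends on that number, so these shares do not give the power of the fits to the data.

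Alternatives were a filter of log2 over 5 in at least 3 arrays, log2 of the value plus 16, repeated quantile normalization, centring of arrays, eBayes with trend and robust, array weights, a replicate block, only the arrays compared, each array or pair left out and, for the lists, the average over a gene's probe sets. The test of the line difference and the anchor 206542_s_at were added after the values were seen. Replicate numbers did not pair the samples: over 84 same-number pairs of groups the correlation of deviations was -0.20 to 0.21 (median -0.003), with 6 over 0.1. Motifs were counted and figures drawn with Python 3.11.15, pandas 2.3.3 and matplotlib 3.10.9.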

Additional observations from a re-analysis of the deposited data

Results flagged for a closer look

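The size of the S2sh7 effect differed between A549 and H1299 (limma over all 32 arrays, added after the values were seen, adjusted p under 0.05) for 10 of the 16 probe sets, where 13.5% of all probe sets were called lower and 16.8% higher. Values are the A549 effect minus the mean H1299 effect on the log2 scale. For SMARCA2 they were -1.83 for 206542_s_at, -1.80 for 217707_x_at, -1.59 for 206544_x_at, -0.84 for 212257_s_at and -0.40 for 228926_s_at. For SMARCA4 they were 0.83 for 212520_s_at, 0.64 for 208794_s_at, 0.46 for 213720_s_at, 0.42 for 215714_s_at and 0.18 for 208793_x_at. The first 4 SMARCA2 probe sets fell in both lines and further in A549. The SMARCA4 probe sets 208794_s_at, 213720_s_at and 215714_s_at had a mean effect of -0.40, -0.40 and -0.23 in H1299 and 0.23, 0.06 and 0.19 in A549. The line, the batch label, the array scaling and the gene of the expressed cDNA changed together and cannot be told apart.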

How the results depend on the processing

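No called fold change of a member reversed under any alternative run. Reversal was not checked for members that were not called or for list genes, which were followed by counts of calls. The 4 SMARCA2 probe sets kept their calls with S2sh7 in both lines, except 212257_s_at as given in the report. With only the compared arrays fitted, SMARCA4 probe sets lower with S2sh7 were 1 in place of 3 with WT and 1 in place of 2 with BRD, and SMARCA2 probe sets higher than GFP with S2sh7 were 0 in place of 2 with WT, BRD and ATPdead. Repeated quantile normalization and array weights also gave 1 for SMARCA4 with BRD. With shLuc, 2 SMARCA2 probe sets in place of 1 were higher with WT under the filter, log2 of the value plus 16 and eBayes with trend, and with ATPdead under eBayes with trend. With S2sh7 and BRD, 1 SMARCA2 probe set in place of 2 was higher under log2 of the value plus 16, centring and array weights. SMARCA4 probe sets called against GFP with S2sh7 were 1 in place of 0 under the filter (WT and BRD) and eBayes with trend (BRD), and 2 under eBayes with trend (WT). Interactions called were 1 in place of 0 with WT under the filter and with BRD under eBayes with trend. In A549, 2 SMARCA4 probe sets in place of 1 were higher with S2sh7 under the filter, quantile normalization and centring. The cause was not tested.

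With each array left out in turn, SMARCA2 probe sets lower with S2sh7 and WT ranged from 3 to 5, SMARCA4 probe sets lower with S2sh7 ranged from 1 to 2 with WT and from 1 to 2 with BRD, SMARCA4 probe sets called with WT against GFP under S2sh7 from 0 to 1, and SMARCA2 probe sets higher than GFP under S2sh7 from 1 to 2 with BRD and with ATPdead. Without 1 A549 pair, 0 SMARCA4 probe sets were called higher. With a replicate block, which the check of pairing did not support, 4 SMARCA2 probe sets fell with GFP, 5 with WT, 4 with BRD and 4 with ATPdead, and of 46 fold changes only that of 212520_s_at with WT was no longer called (adjusted p = 0.0590). The counts of the 2 gene lists moved more. Subunits higher with ATPdead were 6, but 2 to 3 with 1 array left out, 2 with only the compared arrays and 3 with a replicate block. Subunits higher with BRD were 2, but 1 with only the compared arrays and 7 after repeated quantile normalization. In A549 subunits higher were 4, but 0 to 4 without 1 pair and 8 under log2 of the value plus 16. Other SNF2 ATPases lower with WT were 5, but 2 to 5 with 1 array left out, and with only the compared arrays 1.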
